A study of Mus musculus with 9 samples.

Results

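The 10 genes described here mark enteroendocrine cells, the scattered hormone-secreting cells of the gut lining. They are Cck, Gip, Sct, Gcg, Pyy, Nts, Sst and Ghrl, which encode peptide hormones, Tph1, an enzyme of serotonin synthesis, and Chga, a protein of the secretory granule. Each was found through the array's annotation, by probe sets that carry its symbol and no other. All 10 of 10 were found, each with 1 probe set, among 18193 genes measured in this way, and all 10 passed the filter on low signals.

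The samples were mucosal scrapings of the small intestine from male C57Bl/6J mice, an inbred strain with no transgene or other genetic change named in the labels. The mice were 9 weeks old when they began diets high in fat, and tissue was taken after 2 weeks. All of the diets analysed were high in fat, and they differed in its source: HF-PO held palm oil, HF-OO held olive oil, and HF-SO held safflower oil. Adhering fat and pancreas were stripped from the gut before scraping, per the labels. The intestine was divided into 3 equal parts, SI1 next to the stomach, SI2 in the middle and SI3 distal. For each part and diet the RNA of 6 mice was pooled on 1 Affymetrix array, which gave 9 arrays. A segment thus has 3 pools, and a diet has 1 array per segment. The 3 segments of a diet share mice, and the low-fat animals were not analysed here.

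Enteroendocrine cells sense nutrients at the gut surface and release hormones from basal granules. Their repertoire is known to change along the intestine. Cholecystokinin (Cck) and gastric inhibitory polypeptide (Gip) are classically proximal hormones, whereas neurotensin (Nts), peptide YY (Pyy) and the glucagon-like peptides encoded by Gcg are classically distal. The cells are rare, so in scraped mucosa fewer cells of a type and less RNA per cell cannot be told apart.

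Signals are MAS5 intensities on a linear scale, in which each array has a trimmed mean of 500. Signals of the 10 genes lay between 170.7 and 9427, below the highest signal of any array (44530 in the array where it was lowest). Median signals of the arrays ran from 94.4 to 105.9. The number of arrays limits the precision. Summed signals of 6 enterocyte genes lay between 165064 and 202485, and those of 6 smooth muscle genes between 2776 and 4751. These sums do not show that the scrapings were purely epithelial. One array stood apart: in SI1 of HF-PO the summed signal of 9 stomach genes was 8504, against 2184 and 2357 in the other arrays of SI1, and the segment changes were also fitted without it. In that fit the changes from SI1 to SI3 were -2.35 for Cck, -1.90 for Gip, -1.51 for Ghrl, -1.01 for Tph1 and -0.78 for Sst, and 3.21 for Nts, 2.26 for Pyy, 1.39 for Gcg and 0.32 for Sct on the log2 scale. Sct lost its call (limma adjusted p = 0.0775), and of the calls from SI1 to SI2 that of Tph1 came nearest the threshold (adjusted p = 0.0499).

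The upstream sequences of the genes with the largest falls (Cck, Gip) and the largest rises (Nts, Pyy) from SI1 to SI3 are shown, because these genes carry the contrast between the ends of the gut. Each is the 250 bases before a transcript start listed in RefSeq on GRCm38.p6, read 5′ to 3′ on the gene's own strand. The windows lie at chr9:121495695-121495944, minus strand (Cck); chr11:96024295-96024544, plus strand (Gip); chr10:102490419-102490668, minus strand (Nts); and chr11:102107833-102108082, minus strand (Pyy). For Gip the gene as listed begins a few bases upstream of that start, so the last bases of its window lie within the gene. Capitals mark matches on either strand to the E-box CANNTG, the core of the cyclic AMP response element TGACG, and the forkhead core TAAACA.
Cck promoter: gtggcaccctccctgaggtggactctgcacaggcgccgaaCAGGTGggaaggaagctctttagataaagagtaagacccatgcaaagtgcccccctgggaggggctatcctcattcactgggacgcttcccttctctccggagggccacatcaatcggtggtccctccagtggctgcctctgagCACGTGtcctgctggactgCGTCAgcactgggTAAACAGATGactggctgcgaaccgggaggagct
Gip promoter: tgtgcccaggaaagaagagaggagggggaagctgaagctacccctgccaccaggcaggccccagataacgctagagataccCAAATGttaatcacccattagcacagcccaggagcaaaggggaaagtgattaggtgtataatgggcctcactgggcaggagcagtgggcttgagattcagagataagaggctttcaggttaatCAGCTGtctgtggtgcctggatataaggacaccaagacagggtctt
Nts promoter: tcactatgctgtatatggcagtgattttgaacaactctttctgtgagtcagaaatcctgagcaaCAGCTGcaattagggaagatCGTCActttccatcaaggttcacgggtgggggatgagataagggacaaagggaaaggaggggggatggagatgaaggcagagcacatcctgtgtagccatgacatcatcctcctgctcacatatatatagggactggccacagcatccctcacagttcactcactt
Pyy promoter: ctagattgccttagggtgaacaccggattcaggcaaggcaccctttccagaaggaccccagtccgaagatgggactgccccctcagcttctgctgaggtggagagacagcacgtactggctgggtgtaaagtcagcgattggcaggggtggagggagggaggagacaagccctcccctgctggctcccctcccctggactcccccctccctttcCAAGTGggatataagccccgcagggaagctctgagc
Cck held 3 E-boxes, of which the one nearest the start overlaps the forkhead core, and 1 TGACG core, and Gip held 2 E-boxes. Nts held 1 E-box and 1 TGACG core, and Pyy held 1 E-box. Of 32851 RefSeq promoter windows of this length, 66.2% held CANNTG, 17.8% TGACG and 12% TAAACA. The matches describe the letters and were not tested for any role.

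Of the 10 genes, 5 were lower and 4 higher in SI3 than in SI1, which set the ends of the small intestine against each other. The lower ones were Cck, Gip, Ghrl, Tph1 and Sst, and the higher ones Nts, Pyy, Gcg and Sct. Chga did not pass. Calls were made at an adjusted p under 0.05 with limma and Benjamini-Hochberg adjustment over 22519 probe sets, of which 44.3% were called in this comparison (25% higher, 19.2% lower). The median size of the change, whatever its sign, was 1.32 on the log2 scale over the 10 genes and 0.32 over all probe sets tested. The signed medians were -0.22 and 0.08. The 3 arrays of SI3 did not overlap the 3 of SI1 for 9 of the genes, where 55.4% of all probe sets tested did not overlap. Between neighbouring segments it was again 9 of the genes, against 37.6% of probe sets for SI1 and SI2 and 40.7% for SI2 and SI3. Folds and log2 changes are on the scale of signal + 16. The 10 panels of signal by segment show each array.

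**Figure D1:**
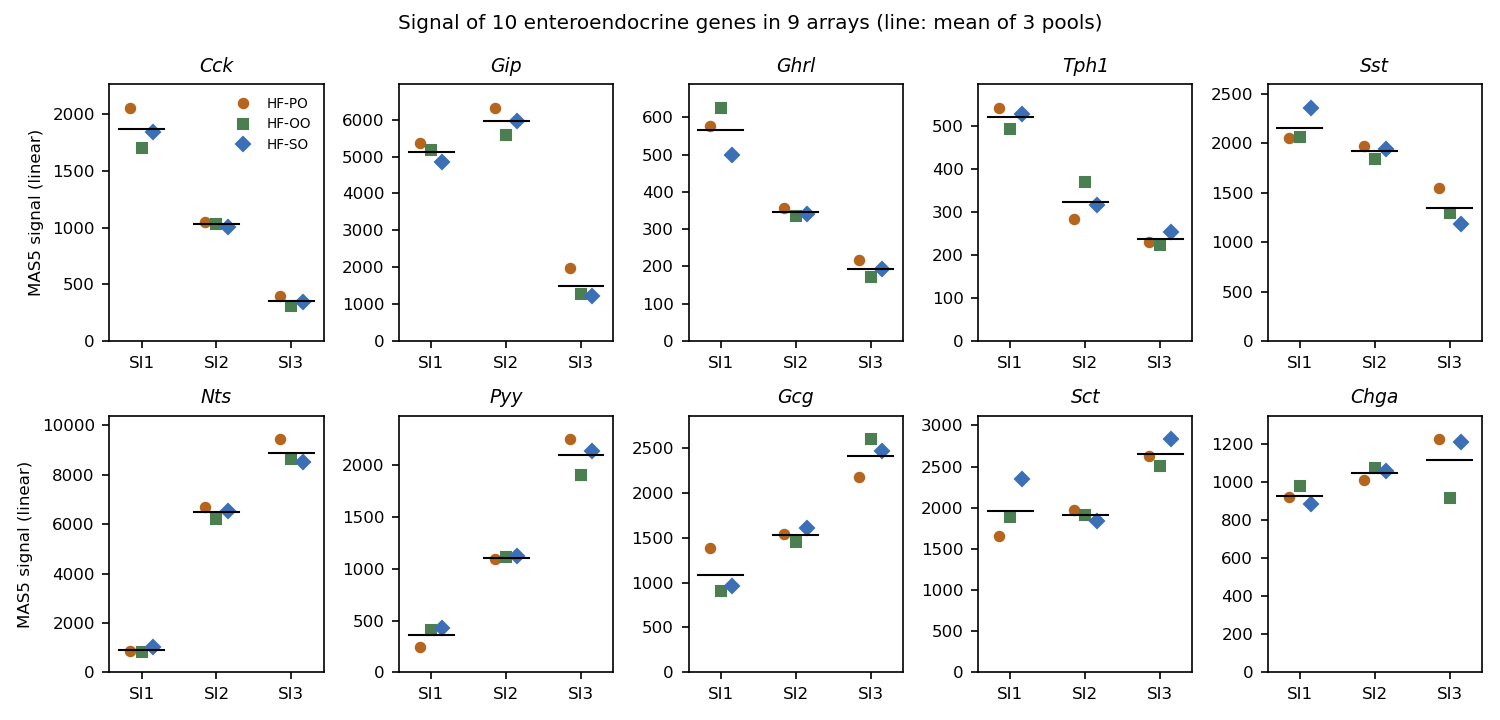
Signal of each gene (linear MAS5 units, axis from 0) in SI1, SI2 and SI3, with 1 point per pooled array coloured by diet and a line at the mean of 3 pools. Cck falls from a mean of 1869.7 to 349.5 and Nts climbs from 911 to 8856, while the arrays of Chga overlap between SI1 and SI3.

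Cck, which the gut releases in response to fat and protein and which contracts the gallbladder, gave signals of 2057, 1706 and 1847 in SI1 (HF-PO, HF-OO and HF-SO, the order kept below). They were 1049, 1034 and 1006 in SI2 and 397, 311 and 340.2 in SI3. Every array of a segment was below every array of the segment before it. Cck fell 5.17-fold from SI1 to SI3, by 2.37 on the log2 scale (SE 0.09, n = 3 pools, limma adjusted p = 7.61e-06). It fell by 0.85 up to SI2 (SE 0.09, adjusted p = 0.00241) and by 1.52 beyond it (SE 0.09, adjusted p = 0.000215). Its total change was -2.33, -2.40 and -2.39 in the 3 diets.

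Gip, the incretin of K cells that raises insulin release after a meal, had another course. Its signals were 5364, 5179.7 and 4852 in SI1, 6324, 5591 and 5961 in SI2, and 1985, 1277 and 1229.6 in SI3. Signals in SI1 and SI2 were close, the SI2 arrays all slightly above, and SI3 lay far below both. From SI1 to SI2 the estimate was 0.21 with a 95% interval from -0.11 to 0.54 (limma adjusted p = 0.329). From SI2 to SI3 Gip fell 4.04-fold, by 2.01 on the log2 scale (SE 0.14, adjusted p = 0.000273). The total fall from SI1 was 1.80 (SE 0.14, adjusted p = 0.000103).

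Ghrl encodes ghrelin, a hunger hormone whose main source is the stomach. Its signals fell from 578, 626 and 498 in SI1 to 357, 336.5 and 341 in SI2 and 217, 170.7 and 194 in SI3, with no overlap between segments. The fall was 0.69 at the first step (SE 0.11, limma adjusted p = 0.0111) and 0.79 at the second (SE 0.11, adjusted p = 0.0042). From end to end it was 2.78-fold, or 1.47 on the log2 scale (SE 0.11, adjusted p = 0.000106).

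Tph1 is the rate-limiting enzyme of serotonin synthesis in enterochromaffin cells. It gave 542, 492 and 527 in SI1, 285, 371 and 317 in SI2, and 231, 223 and 254 in SI3. All arrays of SI1 lay above those of SI2, and these above SI3. Tph1 fell 2.13-fold in all, by 1.09 (SE 0.12, limma adjusted p = 0.000449), of which 0.67 came by SI2 (SE 0.12, adjusted p = 0.0129) and 0.42 after it (SE 0.12, adjusted p = 0.0412).

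Sst encodes somatostatin, the D cell peptide that restrains the release of other hormones. Its signals were 2057, 2063 and 2359.5 in SI1, 1975, 1844 and 1938 in SI2, and 1552, 1297.5 and 1180.5 in SI3. The segments did not overlap, but SI1 and SI2 were close: the difference was -0.17 with a 95% interval from -0.45 to 0.11 (limma adjusted p = 0.375). Sst fell by 0.52 from SI2 to SI3 (SE 0.12, adjusted p = 0.0229) and by 0.68 from SI1 to SI3 (SE 0.12, adjusted p = 0.00363), which is 1.61-fold.

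Nts, the peptide of N cells that slows gut movement and aids fat absorption, showed the largest change of the 10. Its signals were 881, 809 and 1042 in SI1, 6701, 6203.5 and 6517 in SI2, and 9427, 8616 and 8524 in SI3. The large gap lay between SI1 and SI2, and the SI3 arrays were again all above SI2. Nts rose 7.04-fold by SI2, or 2.82 on the log2 scale (SE 0.10, limma adjusted p = 1.7e-05), and by a further 0.45 to SI3 (SE 0.10, adjusted p = 0.0231). From end to end it rose 9.62-fold, or 3.27 (SE 0.10, adjusted p = 4.32e-06).

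Pyy, an L cell hormone that reduces appetite and slows transit, gave 249, 407.5 and 429.9 in SI1, 1091, 1112 and 1120.5 in SI2, and 2249.7, 1906 and 2132 in SI3. No segments overlapped, and the lowest value of all was the HF-PO array of SI1. Pyy rose 5.72-fold from SI1 to SI3, by 2.52 on the log2 scale (SE 0.18, limma adjusted p = 7.85e-05). The step to SI2 was 1.61 (SE 0.18, adjusted p = 0.00279) and the step to SI3 0.91 (SE 0.18, adjusted p = 0.0142).

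Gcg encodes proglucagon, which L cells cut into the glucagon-like peptides and pancreatic alpha cells into glucagon. Its signals were 1381, 905 and 958 in SI1, 1543, 1454 and 1604 in SI2, and 2179, 2594.5 and 2463 in SI3. The segments did not overlap, though the HF-PO array of SI1 came near SI2. Gcg rose 2.25-fold from SI1 to SI3, by 1.17 (SE 0.16, limma adjusted p = 0.00146), with 0.65 of it between SI2 and SI3 (SE 0.16, adjusted p = 0.032). The step from SI1 to SI2 did not pass, at 0.52 (SE 0.16, adjusted p = 0.0735). It was 0.16 in the HF-PO pool, 0.67 in HF-OO and 0.73 in HF-SO. Without the SI1 array of HF-PO it was 0.74 (limma adjusted p = 0.0217), an alternative chosen after the data were seen.

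Sct encodes secretin, which makes the pancreas release bicarbonate and is classically described in the duodenum. Its signals were 1655, 1883 and 2345 in SI1, 1978, 1911 and 1837 in SI2, and 2627, 2503 and 2831 in SI3. SI1 and SI2 overlapped, with the SI2 arrays inside the range of SI1, and all SI3 arrays were higher. Sct rose 1.36-fold from SI1 to SI3, by 0.45 (SE 0.12, limma adjusted p = 0.0231), and by 0.47 from SI2 to SI3 (SE 0.12, adjusted p = 0.0352). From SI1 to SI2 the estimate was -0.02, with a 95% interval from -0.31 to 0.27 (adjusted p = 0.916). The call between the ends was lost without the HF-PO pool (0.34, adjusted p = 0.107), without the HF-OO pool (0.47, adjusted p = 0.113) and with the HF-PO array of SI1 left out (0.32, adjusted p = 0.0775). It passed without the HF-SO pool (0.53, adjusted p = 0.0335).

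Chga encodes chromogranin A, a granule protein shared by many endocrine cell types. Its signals were 924, 981 and 883 in SI1, 1013, 1076 and 1057 in SI2, and 1225, 914 and 1211 in SI3. The HF-OO array of SI3 lay inside the range of SI1, and the other 2 arrays of SI3 were the highest of the 9. The difference between SI3 and SI1 was 0.25 with a 95% interval from -0.05 to 0.55 (limma adjusted p = 0.153). The steps were 0.17 (adjusted p = 0.397) and 0.08 (adjusted p = 0.703).

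The steps themselves asked where along the intestine each gene changes. Between SI1 and SI2, 5 of the 10 genes were called, 2 higher (Nts, Pyy) and 3 lower (Cck, Ghrl, Tph1), where 15% of all probe sets tested were called (8.07% higher, 6.92% lower). Between SI2 and SI3, 9 were called, 4 higher and 5 lower, and they were those called between the ends; of all probe sets tested 21.3% were called (10.4% higher, 10.8% lower). In a test over all 3 segments together, 9 of the 10 passed, against 40.7% of all probe sets tested. Gip, Sst, Sct and Gcg were thus called at the distal step and not at the proximal one.

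That contrast needs a test of the difference between the steps, which was added after the data were seen and in which 3.72% of all probe sets were called (2.19% with the distal step the lower). It passed for 2 of the 10 genes. For Gip the distal step minus the proximal step was -2.23 (SE 0.24, limma adjusted p = 0.00639), and for Nts it was -2.36 (SE 0.18, adjusted p = 0.00159). For Gip the call was lost without the HF-OO pool (-2.23, adjusted p = 0.106) and without the HF-SO pool (-2.06, adjusted p = 0.0994), and for Nts without the HF-OO pool (-2.33, adjusted p = 0.0573). Cck, at -0.68, did not pass (adjusted p = 0.067), nor did Sct at 0.49 (adjusted p = 0.249), Sst at -0.35 (adjusted p = 0.378) and Gcg at 0.12 (adjusted p = 0.838). The bar plot of the steps shows the fall of Gip at the distal step and the rise of Nts at the proximal one.

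**Figure D2:**
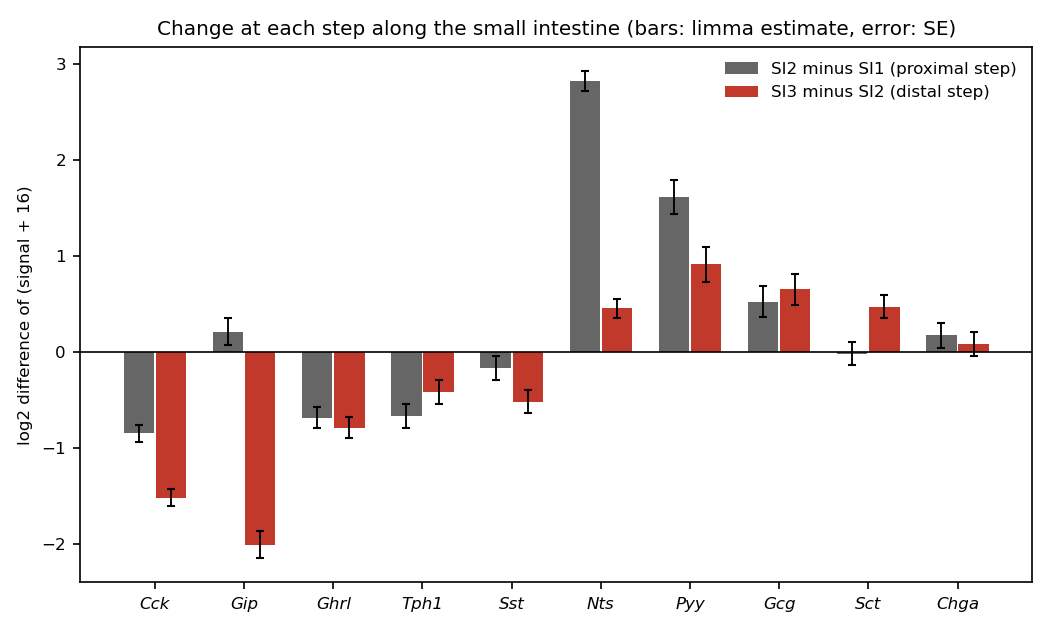
Log2 difference of (signal + 16) for each gene from SI1 to SI2 (grey) and from SI2 to SI3 (red), as bars from 0 with the SE of the limma fit over 3 pools. Gip stands at 0.21 and -2.01, Nts at 2.82 and 0.45, and Cck at -0.85 and -1.52.

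The calls between neighbouring segments rest on few arrays. Without 1 pool the fit keeps 2 residual degrees of freedom. Of the 9 genes called between SI2 and SI3, 3 (Cck, Gip and Ghrl) passed without the HF-OO pool and 3, again those, without the HF-SO pool; 6 passed without the HF-PO pool. Of the 5 called between SI1 and SI2, Cck, Nts and Pyy passed whichever pool was left out, Ghrl passed in none of these fits and Tph1 only without the HF-OO pool.

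The diets were compared within each segment, as values of single pooled arrays with no replicate check and no p-value. A gene counted as set apart when 1 diet lay at least 1.5-fold above the other two, or as far below them. This held for 2 of the 30 pairs of gene and segment: Gip in SI3 and Pyy in SI1, both in the HF-PO array. In SI3, Gip stood at 1985 with HF-PO against 1277 and 1229.6, and was 1.55-fold above the nearer diet, as 0.888% of all probe sets were set apart upwards in that array. In SI1, Pyy stood at 249 with HF-PO against 407.5 and 429.9, and was 1.60-fold below the nearer, as 1.23% of all probe sets were set apart downwards there. That is the array with the high stomach sum of 8504, and its exocrine pancreas sum of 43696 was also the highest of the 3; their part in the diet values was not tested. Set apart in some diet were 1 of 10 genes in SI1, 0 of 10 in SI2 and 1 of 10 in SI3, against 4.92%, 4.72% and 5.64% of all probe sets tested. Counts this small cannot be set apart from those shares.

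Gcg in SI1 was next, at 1.43-fold above the nearer diet in the same HF-PO array, followed by Chga in SI3, at 1.32-fold below in the HF-OO array. In SI3, 7 of the 10 genes were highest with HF-PO, where 32.1% of all probe sets tested were highest in that array. The same counts were 4 in SI1 (34.9% of all probe sets) and 6 in SI2 (32.1%). The 7 in SI3 included both genes that fell towards SI3 (Cck, Gip, Ghrl and Sst) and genes that rose (Nts and Pyy), with Chga. Except for Gip, each was within 1.19-fold of the next diet. In SI2 the spread was smallest: the range over diets had a median of 0.11 on the log2 scale over the 10 genes, against 0.26 over all probe sets tested. In SI1 and SI3 it was 0.30 and 0.29, and 0.26 in both for all probe sets. The plot of departures by diet shows these ranges.

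**Figure D3:**
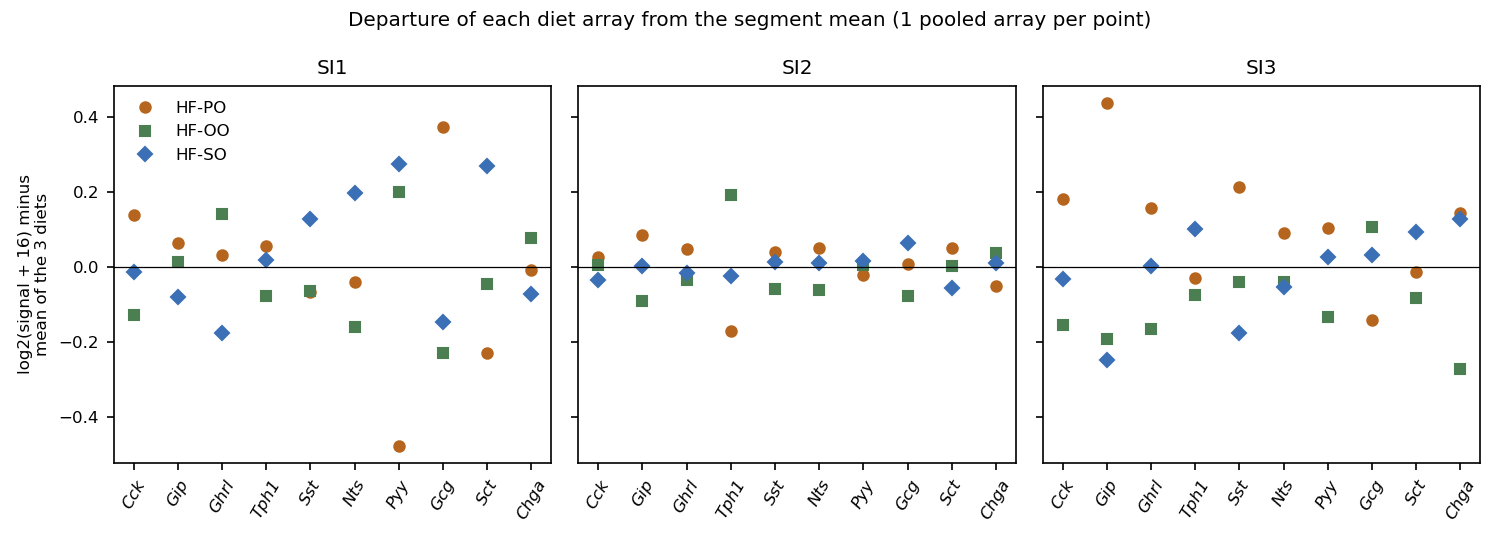
Log2(signal + 16) of each diet's array minus the mean of the 3 diets, for the 10 genes in SI1, SI2 and SI3; each point is 1 pooled array. HF-PO lies farthest from 0 for Pyy in SI1 and for Gip in SI3, and the points of SI2 lie closer to 0, those of Tph1 apart.

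Ghrelin, somatostatin and glucagon are also made in the stomach or pancreas, so markers of those organs were read in the same arrays. The stomach sum of 9 of 9 genes was 1019 to 1307 in SI2 and SI3, below all arrays of SI1, and its part in the proximal signal of Ghrl was not tested. Gkn2, a stomach surface protein, stood at 2515, 357 and 342.5 in SI1. Of the other stomach genes, Gkn1, Gkn3, Tff1, Muc5ac and Pgc were also highest in the HF-PO array of SI1, while Atp4a, Atp4b and Cblif were not. Ghrl in the arrays of SI1 was 578, 626 and 498. Without the HF-PO array of SI1, the fall of Ghrl from SI1 to SI3 was 1.51 (limma adjusted p = 0.000985), and with it 1.47.

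Of 10 exocrine pancreas genes 8 had a probe set, and 7 of these were lower in SI3 than in SI1, as were 19.2% of all probe sets tested. The other was Clps, a colipase, at 4007 ± 602 in SI1 and 4169 ± 923 in SI3. Means of Cpa1, Cela2a, Cpb1 and Ctrl lay below the filter signal of 95.6 in both SI2 and SI3. Such genes passed the filter through SI1, which largely fixed a call of lower. The count is therefore a description and no test against the share of all probe sets. The summed signal of the 8 genes was 43696, 33536 and 35144 in SI1, and 2862 to 5160.5 in SI2 and SI3. Cpa1, a pancreatic carboxypeptidase, fell from 4224 ± 683 (SD, n = 3 pools) in SI1 to 6.6 ± 3.76 in SI3. Ins2, the insulin of islet beta cells, gave 161, 90.0 and 81.9 in SI1 and 7.2 to 24.0 elsewhere, below the filter and so untested. Of the islet list, 6 of 8 genes had a probe set, with sums of 2330.5 to 2519 in SI1 and 219 to 368 in the other segments. Pdx1, which the duodenum also expresses, gave 1820.3 to 2091 of the sums in SI1.

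In the HF-PO array of SI1, Gcg (1381 against 905 and 958), Ins2 (161 against 90.0 and 81.9) and Cpa1 (4944 against 3585 and 4142) were each the highest of the 3. The islet sum was the lowest there (2330.5 against 2519 and 2372), but most of it was Pdx1 (1820.3 against 2091 and 2036). Ppy (14.6 against 20.1 and 18.7) and Sst (2057 against 2063 and 2359.5) were also lowest there. Of the other islet genes, Iapp (276.1 against 262.9 and 163.2) and G6pc2 (31.2 against 28.9 and 27.9) were highest there. Slc30a8 lay between (27.3 against 26.6 and 44.2). Across segments, Ins2, itself below the filter, and the islet sum were both lower in SI2 and SI3 than in SI1. Most of the fall in the sum was Pdx1, with means of 1982.5, 36.9 and 17.2 from SI1 to SI3. Means of Iapp, Slc30a8 and G6pc2 were also lower in SI3 than in SI1, and that of Ppy was higher (17.8 and 26.8). Over the same segments Gcg rose and Sst fell, by 0.52 between SI2 and SI3. The part of islet RNA in Gcg, or in Sst, was not tested. Without the HF-PO array of SI1, the fall of Sst from SI1 to SI3 was 0.78 (limma adjusted p = 0.00614) and the rise of Gcg 1.39 (adjusted p = 0.000683). The panels of organ markers beside the hormone genes show these arrays.

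**Figure D4:**
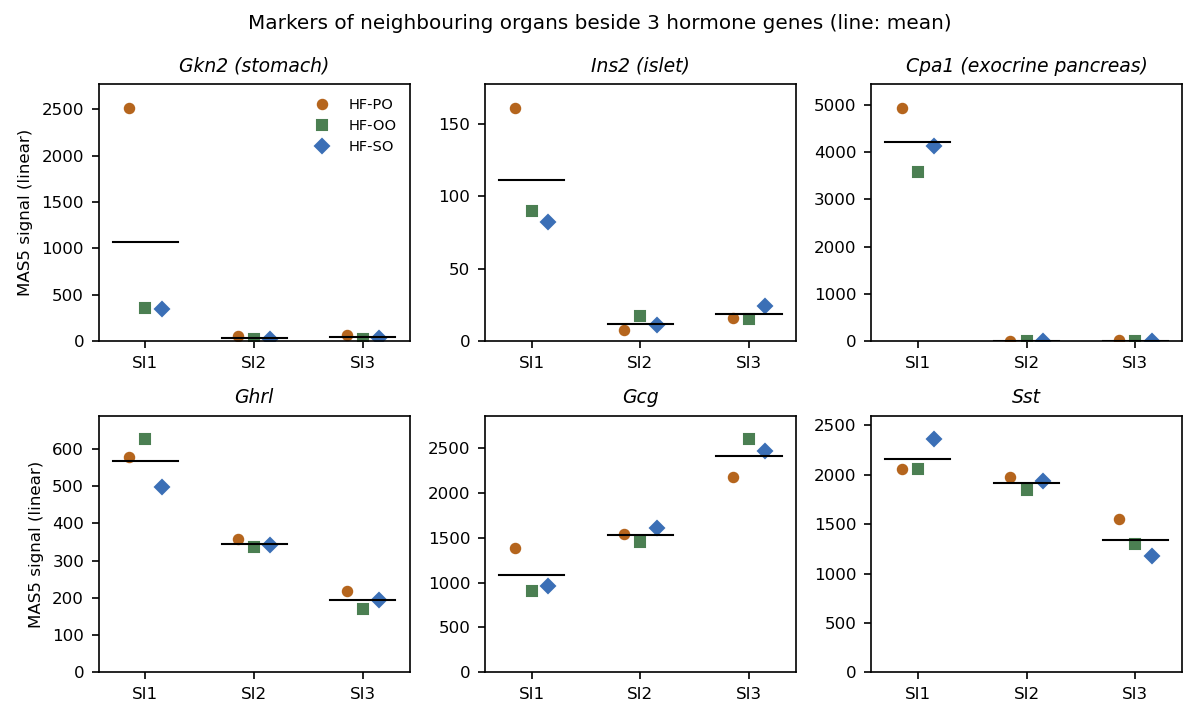
Signal (linear MAS5 units, axis from 0) of Gkn2, Ins2 and Cpa1, markers of stomach, islet and exocrine pancreas, above Ghrl, Gcg and Sst, with 1 point per pooled array and a line at the mean. The HF-PO array of SI1 stands out for Gkn2 at 2515 and lies between the other diets for Ghrl at 578.

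Enteric neurons also make Sst and Tac1. Of their 9 marker genes with a probe set, of 10 listed, 8 were below the filter; sums ran from 373 to 443 in SI1, 501 to 711 in SI2 and 549 to 589 in SI3. Ret, a receptor of enteric nerve cells, was the one tested and rose by 0.88 from SI1 to SI3 (limma adjusted p = 0.0249). Its mean signal was 123.3 in SI1 and 236.0 in SI3, a large part of the change in the sums. The dim markers went both ways. Means of Prph and Snap25 were lower in SI3 than in SI1, and those of Elavl4, Elavl3, Uchl1, Tubb3, Stmn2 and Vip were higher. The part of neurons in the distal rises, which was 9.62-fold for Nts where Ret rose 1.84-fold, was not tested. Goblet cells, the mucus-secreting relatives of enteroendocrine cells, had 6 of 7 markers higher in SI3 than in SI1, with a list median of 0.58; their part was not tested either. Of 6 smooth muscle genes, 2 (Acta2 and Tagln) were lower in SI3 than in SI1 and the list median was -0.33. Beside these counts, 25% of all probe sets tested were higher and 19.2% lower in SI3 than in SI1.

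Beyond the hormones, the tested genes of the machinery that cuts and packs them are given next and in the plot of tested pathway genes. Of 13 genes for precursor processing and granule proteins, 7 were tested. Between SI3 and SI1, 1 was higher and 2 lower, with a median of 0.02, beside 25% higher and 19.2% lower of all probe sets tested. A count this small cannot be set apart from those shares. The granin Chgb fell by 0.55 (SE 0.09, limma adjusted p = 0.00264), from 4425 ± 103 to 3014 ± 224 (SD, n = 3 pools). Scg3, another granin, fell by 1.08 (SE 0.29, adjusted p = 0.02), to signals of 32.2 to 78.1 in SI3. All of these SI3 signals lay below the filter signal of 95.6. Scg3 thus passed the filter through arrays of the other segments, and the size of its change is uncertain. Pcsk1, the prohormone convertase that releases glucagon-like peptides from proglucagon, rose by 0.53 (SE 0.13, adjusted p = 0.0139), from 211 ± 45.4 to 311 ± 46.8. Carboxypeptidase E (Cpe), which trims the cut peptides, stood at 0.02 with a 95% interval from -0.34 to 0.37 (adjusted p = 0.931).

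Of 7 genes for serotonin synthesis and handling, 6 were tested, of which 2 were higher and 1 lower in SI3 than in SI1, with a median of 0.11. Among all probe sets tested 25% were higher and 19.2% lower. Ddc, which turns the product of Tph1 into serotonin and is also active in enterocytes, fell by 1.54 (SE 0.09, limma adjusted p = 3.47e-05), from 13038 ± 1080 to 4508 ± 728. Qdpr, which regenerates the cofactor of Tph1, rose by 0.57 (adjusted p = 0.00487), and Maoa, which degrades serotonin, rose by 0.45 (adjusted p = 0.00725). The serotonin transporter Slc6a4 was highest in the middle, at 1761 ± 27.0, 2586 ± 261 and 1929.8 ± 37.3 from SI1 to SI3. It rose by 0.55 to SI2 (adjusted p = 0.0117) and fell by 0.41 after it (adjusted p = 0.0207). Slc18a1, which loads serotonin into vesicles, rose by 0.41 to SI2 (adjusted p = 0.0341) and was at -0.31 after it (adjusted p = 0.0625).

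Of 15 transcription factors of enteroendocrine cells, 7 were tested, of which 3 were higher in SI3 than in SI1 and the other 4 did not pass. Of all probe sets tested 44.3% were called (25% higher, 19.2% lower), and a count this small cannot be set apart from those shares. The list median was 0.45 where all probe sets had 0.08. Foxa1, which binds forkhead sites and acts in secretory cells of the gut, rose by 2.01 (SE 0.09, limma adjusted p = 1.68e-05), from 415 ± 19.8 to 1723 ± 143. Isl1 rose by 0.56 (adjusted p = 0.0114) and Insm1 by 0.85 (adjusted p = 0.0493), the latter at signals of 50.5 to 194.6 and Isl1 at 63.9 to 144.7, partly below the filter signal of 95.6. Neurod1, which acts on the secretin gene, stood at 0.15 with a 95% interval from -0.19 to 0.48 (adjusted p = 0.436).

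**Figure D5:**
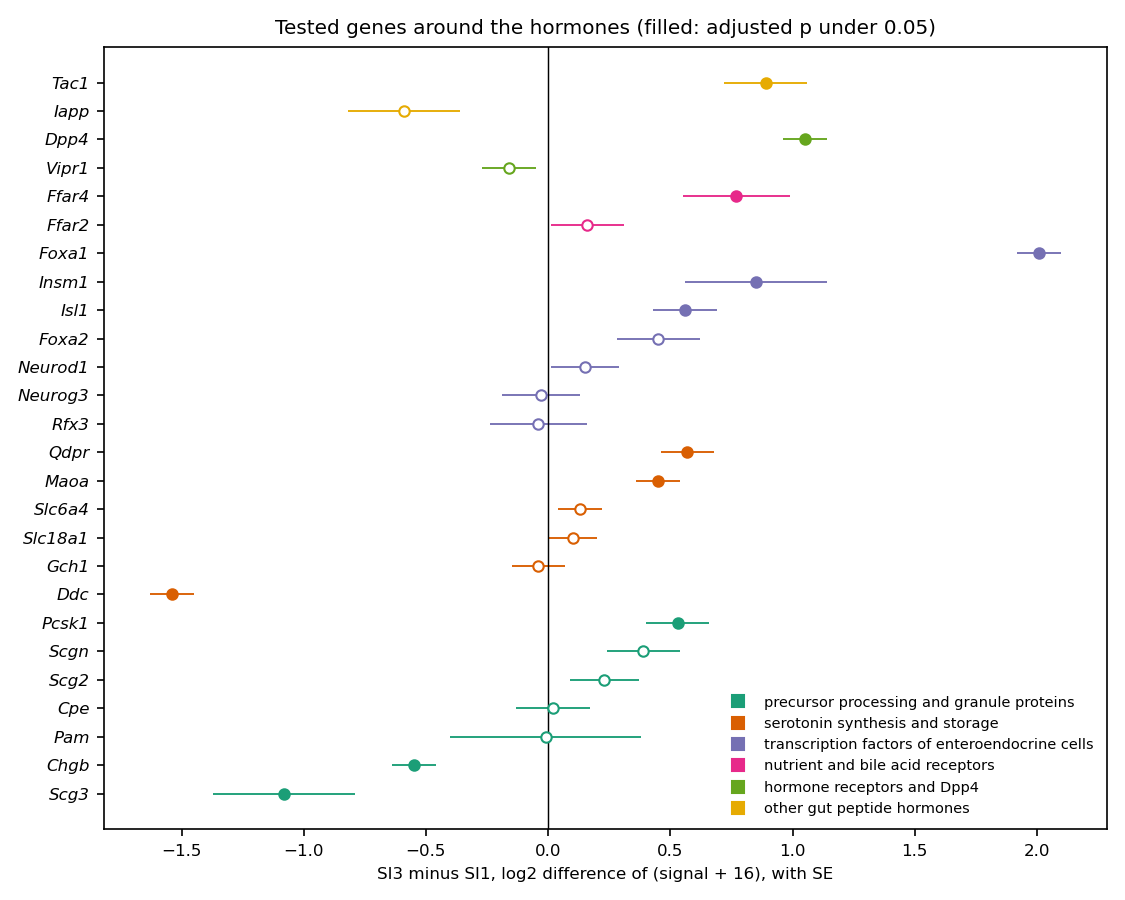
Log2 difference of (signal + 16) between SI3 and SI1, with the SE of the limma fit over 3 pools, for every tested gene of 6 lists around the hormones; filled points passed at an adjusted p under 0.05. Foxa1 at 2.01 lies farthest to the right and Ddc at -1.54 farthest to the left.

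Receptors were mostly too dim to test. Of 11 receptors for nutrients and bile acids, 6 had a probe set and 2 were tested. Ffar4, a receptor for long-chain fatty acids, gave 56.1, 115 and 156 in SI1, 45.4, 71.8 and 96.2 in SI2, and 189.5, 179.5 and 186 in SI3. The signals of 2 arrays of SI2 and 1 of SI1 lay below the filter signal of 95.6, so the gene passed the filter through its other arrays and the size of its change is uncertain. The fit called it higher in SI3 than in SI1 (limma adjusted p = 0.0262) and than in SI2 (adjusted p = 0.00894).

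Of 14 genes for hormone receptors and Dpp4, 2 were tested. Dpp4, the peptidase that inactivates Gip and glucagon-like peptide, rose by 1.05 (SE 0.09, limma adjusted p = 0.000138), from 7289 ± 538 to 15099.6 ± 509. Vipr1, a receptor for vasoactive intestinal peptide, rose by 0.51 to SI2 (adjusted p = 0.0224) and fell by 0.67 after it (adjusted p = 0.00607). Of 10 other gut peptide genes, 2 were tested. Tac1, the substance P precursor, rose by 0.89 from SI1 to SI3 (SE 0.17, adjusted p = 0.005), from 603 ± 105 to 1122 ± 134. The other, Iapp, did not pass, at -0.59 (SE 0.23, limma adjusted p = 0.0713), from 234.1 ± 61.7 to 149.0 ± 35.9.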

How the data were processed

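RNA of 6 mice was pooled per segment and diet and hybridised to 9 arrays. The authors deposited 1 signal intensity per probe set and array, on a linear scale, made with MAS5 per the submitters' processing notes; MAS5 summarises each array alone, and detection calls were not used here. The 64 array controls were left out, leaving 45037 probe sets. Platform annotation gave 34945 of them 1 symbol, 932 several and 9160 none.

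Log2(signal + 16) was fitted with limma 3.58.1 (R 4.3.3) on segment and diet pool, with 4 residual degrees of freedom, over the 22519 probe sets at or above the median mean of 6.80; dim genes' changes are understated. The pool is a block because its segments share mice; same-pool arrays' departures from segment means correlated at -0.05 to 0.15, other pairs at -0.13 to 0.05. Departures of single arrays from a shared diet effect enter the residual. On simulated data the comparison of SI3 with SI1 was run on 22519 probe sets. It called all of the 100 raised in SI3 by a log2 of 2 and 88 of the 100 raised by 1. Of those left unchanged it called 8. Falls were not simulated.

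All 10 genes are named, and of each pathway list the genes that passed a test or act on one of the 10. Iapp is also named, as the other tested gene of its list. Marker genes of other cells are given mostly as sums and counts. The genes and lists were chosen with earlier results of these data known. For likeness of pattern, the 2 genes with the highest correlation over 9 arrays are named. Alternatives were the pseudocount, the filter, quantile normalization, the block, an intensity trend, leaving out each pool and, for diets, the fold. Python 3.11.15 made the tables.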

Additional observations from a re-analysis of the deposited data

Results flagged for a closer look

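The sign of a segment change differed between diet pools for 3 comparisons, each with 1 array per diet and segment, and the differences were not tested. From SI1 to SI2, Sct changed by -0.35 in the HF-SO pool and by 0.26 in the HF-PO pool. From SI1 to SI3, Chga changed by -0.10 in the HF-OO pool and by 0.45 in the HF-SO pool, and from SI2 to SI3 by -0.23 in HF-OO and by 0.27 in HF-PO. None of these 3 comparisons was called by limma over the 3 pools.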

How the results depend on the processing

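No call reversed under any setting. With pseudocounts of 1 or 64 and with quantile normalization, the calls of the 10 genes were the same in every segment comparison. With no filter on dim probe sets, 3 of the 10 genes were called between SI1 and SI2 (5 with it) and 3 between SI2 and SI3 (9 with it), and with a filter at the 25th percentile 4 between SI2 and SI3; more probe sets enter the adjustment there. The end-to-end call of Sct was lost in both (adjusted p = 0.0951 and 0.0571), and the step difference of Gip with no filter (0.0745). Over all probe sets, no filter gave 604 calls between SI1 and SI2, 1681 between SI2 and SI3 and 4666 over all segments (3375, 4787 and 9154 with it), and the 25th percentile gave 1422 and 2769 for the 2 steps. Leaving out a pool gave 8 to 9 of the 10 genes between SI3 and SI1, 3 to 4 between SI2 and SI1, 3 to 6 between SI3 and SI2, and 6 to 8 over all segments. Over all probe sets it gave 545 to 767 calls between SI1 and SI2, 1329 to 2379 between SI2 and SI3 and 3710 to 5749 over all segments, and without the HF-OO or HF-SO pool 5596 or 6476 between SI1 and SI3 (9969 with all). Without the SI1 array of HF-PO, 1910 were called between SI1 and SI2. With no replicate block, 6 of the 10 genes were called between SI1 and SI2, Gcg being added (adjusted p = 0.0466), as with an intensity trend (adjusted p = 0.0167), which also called the step difference of Cck (adjusted p = 0.0194); the block changed no other call of the 10 genes. At the lower diet threshold tried, 4 pairs of gene and segment were set apart, and at 2-fold 0. Each of the 10 genes had 1 probe set, so the alternative with a second one was not run. P-values measure how far the segment differences vary among these 3 pools, which differ in diet, and not the spread between pools that the block removes.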

Other observations

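Genes whose pattern over the 9 arrays was most like that of each hormone gene are given as a description; the 9 arrays fall in 3 segments, so any gene with the same order of segments scores high. Among 10967 other genes, Ankrd9 (Pearson r = 0.996) and Upb1, an enzyme of pyrimidine breakdown (0.995), were closest to Cck. Tbc1d31 (0.994) and Prkg2, a cyclic GMP-dependent kinase (0.992), were closest to Gip, and like it were high in SI1 and SI2 and lower in SI3. Mean signals of Prkg2 were 3765, 3879 and 1930 from SI1 to SI3. Bcl2l15 (0.995) and Slc5a8, which takes up short-chain fatty acids (0.994), were closest to Nts. Mean signals of Slc5a8 were 16.8, 1425 and 4542.

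Arid5b (0.993) and Ckap2 (0.989) were closest to Gcg, Glg1 (0.991) and Lrp1 (0.990) to Pyy, and Pak2 (0.965) and Rab7 (0.961) to Sct. Batf3 (0.986) and Gda (0.985) were closest to Sst. The respiratory chain genes Ndufv2 and Sdhc (both 0.991) were closest to Ghrl, and Apoo (0.986) and the respiratory chain gene Ndufb10 (0.983) to Tph1. The closest to Chga, Misp3 and Arid4b, reached 0.924 and 0.922.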
